A study of Mus musculus with 19 samples.

Results

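The genes described here are the activity-dependent immediate-early genes Fos, Fosb, Junb, Arc, Egr1, Egr3, Nr4a1, Npas4 and Dusp1, together with Vgf, which encodes a secreted neuropeptide precursor induced by neuronal activity. These 10 of the 41388 counted genes were chosen by name, with earlier results of the same libraries known, and all 10 were found by symbol. They lie on 9 chromosomes, with Fos at chr12:85473890-85477273, Vgf at chr5:137026392-137033351 and Nr4a1 at chr15:101254269-101274795 on the plus strand of GRCm38, and Npas4 at chr19:4984355-4990316 and Arc at chr15:74669083-74672570 on the minus strand. Read counts came from mice that carried 1 ENU-induced allele of Wiz, the gene of a zinc finger protein that forms a complex with the histone methyltransferases G9a and GLP, and from Wiz+/+ controls. WizMommeD30/+ and Wiz+/+ mice were compared in cerebellums of adult males at 56 days post partum, with 3 of each genotype, and in whole brains at 13.5 days post coitum (E13.5), with 3 of each genotype in males and 2 of each in females. All were of strain FVB. The line also carries a multicopy GFP transgene on its FVB/NJ background, in Wiz+/+ mice too, and embryos came from crosses between heterozygotes. How the replicates of a group were handled or batched is not stated, so spread between them may be partly technical.

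Immediate-early genes are transcribed within minutes of synaptic activity or of other stimuli such as growth factors and stress, without new protein synthesis. Calcium entry and MAP kinase signalling act on transcription factors such as CREB and SRF that are already bound at their promoters, and the mRNAs decay soon after the stimulus ends. Some of the products are transcription factors that act on a later wave of genes, while others act at the synapse or switch the signal off. In bulk tissue, fewer cells expressing a gene and less RNA per cell cannot be told apart.

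Depth was 16386029 to 50459755 counts per library, and 28365687 to 30856484 in the cerebellums. Wiz itself was at 95.2, 95.8 and 95.2 CPM (reads of a gene relative to the TMM-scaled total of its library) in the Wiz+/+ cerebellums and at 67.7, 66.5 and 67.9 CPM in the WizMommeD30/+ cerebellums. Its log2 fold change (WizMommeD30/+ over Wiz+/+) was -0.50 there, -0.63 in male and -0.57 in female E13.5 brain, with adjusted p of 9.9e-08, 1.3e-05 and 0.014 by edgeR's quasi-likelihood test with Benjamini-Hochberg adjustment. In females the adjusted p was 0.424 and 0.313 without the first or the second WizMommeD30/+ brain, at log2 fold changes of -0.59 and -0.56. The cerebellums had the markers of their tissue, such as Gabra6 of granule cells at 891 CPM and Calb1 of Purkinje cells at 882 CPM in Wiz+/+, no read of the forebrain gene Dlx2, and Emx1, also of forebrain, at 0.143 CPM. In male Wiz+/+ E13.5 brain, Dcx of young neurons was at 1800 CPM and Emx1 at 19.8 CPM.

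Promoter sequences of 6 of the 10 genes (Fos, Fosb, Junb, Nr4a1, Npas4 and Dusp1) were in the RefSeq table used, of build GRCm38.p6. The 250 bases before the start site were searched on both strands for TGACG, the core letters bound by CREB, for TGACGTCA, the full cAMP response element, which contains them, and for the CArG box bound by SRF. All 6 windows held TGACG in either orientation, as did 17.8% of the 32851 promoters in the table. TGACGTCA was found in Dusp1 alone among the 6 and in 1.55% of all promoters, and a CArG box in none of the 6 windows and in 1.47% of all. Sequence outside these 250 bases was not searched, so the genes may hold either element elsewhere. The sequences of Fos, Dusp1 and Nr4a1 are shown as those of 3 of the 4 genes with the largest spread between cerebellums relative to other genes, and the capitals mark TGACG, its reverse complement or the full element. Bases that GENCODE M21 places in an exon of the gene were left out, which shortened Dusp1 and left nothing of the window of Npas4, the fourth gene, and the window of Nr4a1 lies in an intron of its longest transcript. Counted from the start site, the letters begin at -129 and -66 in Fos, at -191, -143 and -140 in Dusp1, where the last 2 overlap in the full element, at -179 and -169 in Npas4, and at -233, -213, -69 and -40 in Nr4a1. A match of letters does not show that a factor was bound.
Fos, chr12:85473640-85473889, plus strand: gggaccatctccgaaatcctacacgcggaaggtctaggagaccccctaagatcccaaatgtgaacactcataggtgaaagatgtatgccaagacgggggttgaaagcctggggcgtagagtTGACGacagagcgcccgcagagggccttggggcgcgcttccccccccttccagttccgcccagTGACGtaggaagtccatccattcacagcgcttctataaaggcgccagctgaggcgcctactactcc
Dusp1, chr17:26508520-26508722, minus strand: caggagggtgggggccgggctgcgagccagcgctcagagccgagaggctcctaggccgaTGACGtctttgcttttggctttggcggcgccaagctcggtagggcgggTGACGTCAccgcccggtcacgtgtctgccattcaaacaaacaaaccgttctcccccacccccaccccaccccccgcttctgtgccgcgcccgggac
Nr4a1, chr15:101266596-101266845, plus strand: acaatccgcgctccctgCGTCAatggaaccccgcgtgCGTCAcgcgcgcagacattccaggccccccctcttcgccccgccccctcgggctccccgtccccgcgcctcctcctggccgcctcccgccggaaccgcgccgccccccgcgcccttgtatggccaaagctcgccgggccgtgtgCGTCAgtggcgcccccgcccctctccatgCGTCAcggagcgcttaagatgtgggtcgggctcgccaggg

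Transcripts of 9 of the 10 genes were abundant enough to be tested in adult cerebellum, and the levels of most of them differed widely between mice of the same genotype. Fos, a subunit of the AP-1 transcription factor, was at 33.9, 48.7 and 68.8 CPM in the Wiz+/+ cerebellums and at 26.5, 57.1 and 24.4 CPM in the WizMommeD30/+ cerebellums. The second WizMommeD30/+ cerebellum was thus above 2 of the 3 Wiz+/+ cerebellums, and the other two were below all 3. The highest Wiz+/+ value was 2.03-fold the lowest, and the highest WizMommeD30/+ value 2.34-fold the lowest, while the fold change between genotypes was 0.713. The log2 fold change was -0.49 (SE 0.242).

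Npas4, a transcription factor selectively induced by calcium entry in neurons, was at 6.72, 12.3 and 16 CPM in Wiz+/+ and at 4.55, 10 and 8 CPM in WizMommeD30/+. Dusp1, a phosphatase that switches off MAP kinases, was at 40.2, 69.5 and 86.6 CPM in Wiz+/+ and at 32.0, 66.0 and 39.3 CPM in WizMommeD30/+. Both genes overlapped between genotypes, with log2 fold changes of -0.63 (SE 0.241) for Npas4 and -0.51 (SE 0.219) for Dusp1. Nr4a1, an orphan nuclear receptor, was at 42.7, 49.3 and 59.9 CPM in Wiz+/+ and at 32.8, 43.8 and 29.2 CPM in WizMommeD30/+. Here only the second WizMommeD30/+ cerebellum reached into the Wiz+/+ range, above its lowest sample, and the log2 fold change was -0.52 (SE 0.115). Junb, another AP-1 subunit, was at 8.26, 10.6 and 12.2 CPM in Wiz+/+ and at 7.27, 10.4 and 7.28 CPM in WizMommeD30/+, with overlap and a log2 fold change of -0.32 (SE 0.136).

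Other immediate-early genes departed from that picture in part. Arc, which encodes a synaptic protein that promotes AMPA receptor endocytosis, was at 21.5, 21.4 and 22.3 CPM in Wiz+/+ and at 17.1, 19.0 and 19.2 CPM in WizMommeD30/+. Its genotypes did not overlap, yet the difference was small, with a log2 fold change of -0.24 (SE 0.057). Egr1, a zinc finger transcription factor, had a positive fold change: it was at 31.7, 35.5 and 34.9 CPM in Wiz+/+ and at 33.6, 41.7 and 40.8 CPM in WizMommeD30/+, a log2 fold change of 0.19 (SE 0.066) with overlap. Fosb, an AP-1 subunit whose protein forms accumulate with repeated stimulation, was at 1.24, 1.86 and 2.08 CPM in Wiz+/+ and at 1.27, 2.58 and 1.85 CPM in WizMommeD30/+, a log2 fold change of 0.14 (SE 0.231) with overlap. It shared the wide spread within genotypes, its highest value being 1.68-fold its lowest in Wiz+/+ and 2.03-fold in WizMommeD30/+. Egr3, a relative of Egr1, was close to absent from cerebellum, with 2, 0 and 7 reads in Wiz+/+ and 3, 5 and 6 reads in WizMommeD30/+, and was not tested.

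Vgf was at 18.9, 21.2 and 23.3 CPM in the Wiz+/+ cerebellums and at 11, 17.4 and 13.9 CPM in the WizMommeD30/+ cerebellums. Every WizMommeD30/+ value was below every Wiz+/+ value, and the log2 fold change was -0.58 (SE 0.111), a fold of 0.667. Vgf also spread more among the WizMommeD30/+ mice, where its highest value was 1.58-fold its lowest, than among the Wiz+/+ mice, where the ratio was 1.23.

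**Figure D1:**
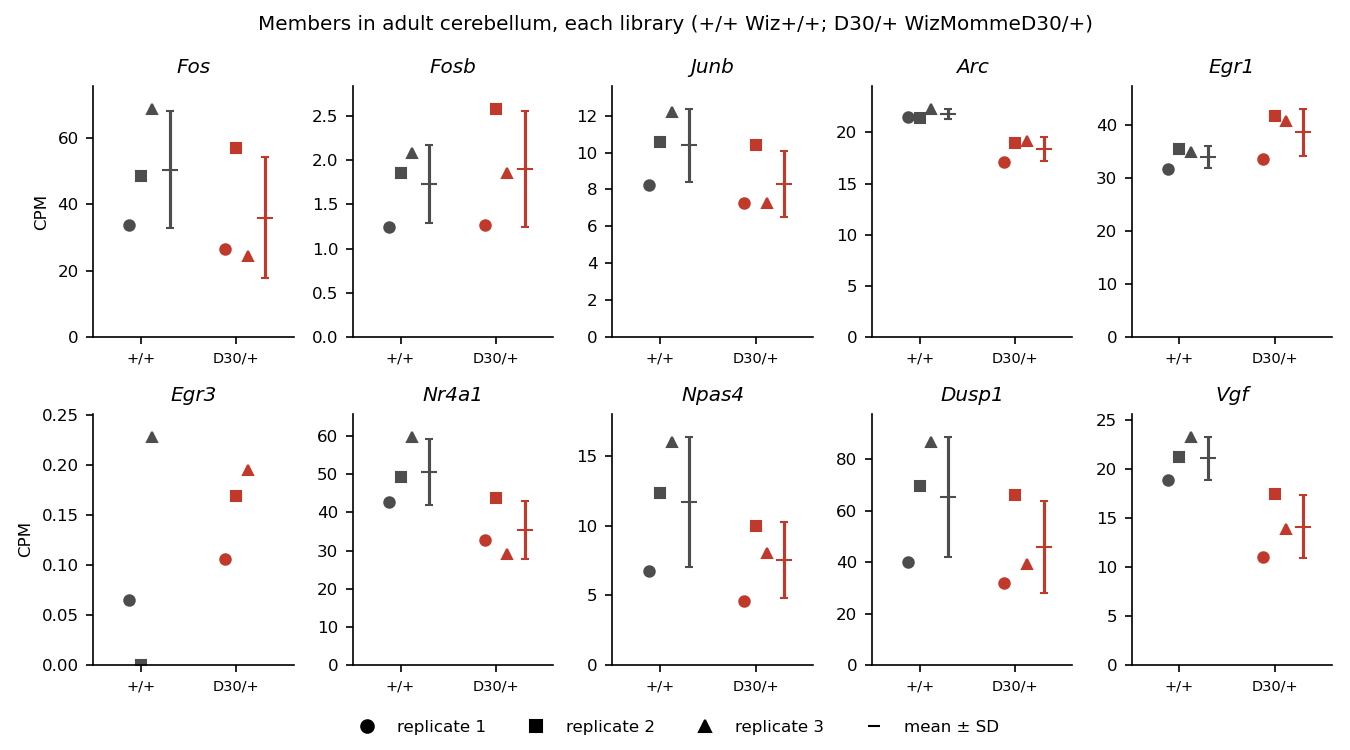
CPM of each of the 10 genes (vertical axes, each from 0) in the 6 adult cerebellums, grey for Wiz+/+ and red for WizMommeD30/+, with a marker shape per replicate number and, except for Egr3 with its few reads, the mean and SD of 3 mice beside them. Vgf and Arc separate the genotypes completely, whereas for Fos, Npas4 and Dusp1 the second WizMommeD30/+ cerebellum (squares) lies among the Wiz+/+ values.

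Over the 9 genes tested in cerebellum, 7 had a log2 fold change below 0, as had 51.3% of the 15979 genes tested, and the median was -0.49 against 0.00 for all genes. Vgf and Nr4a1 were past the threshold of an adjusted p of at most 0.05 with a fold change under 0.7 or over 1.3, which 0.832% of all genes passed and 0.3% passed as lower. Genotypes were separated for Vgf and Arc, with the lower values in WizMommeD30/+ as for 12.4% of all genes. Since this contrast was known when the genes were chosen, these counts are a description and nothing is read from them. The count past the threshold also rested on single libraries. It was 0 of 9 without the third Wiz+/+ cerebellum or without the first WizMommeD30/+ cerebellum, 1 (Vgf) without the third WizMommeD30/+ cerebellum, and 4 without the first Wiz+/+ (Dusp1, Npas4, Nr4a1 and Vgf) or the second WizMommeD30/+ cerebellum (Dusp1, Fos, Nr4a1 and Vgf). The direction of Fosb turned with the library left out, from -0.14 to 0.36 on the log2 scale, while the other 8 genes kept theirs.

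Much of the spread was shared between genes. Of the 9 immediate-early genes, 8 had their highest Wiz+/+ value in the third Wiz+/+ cerebellum and 7 their lowest in the first. Among the WizMommeD30/+ cerebellums, 7 were highest in the second and 7 were lowest in the first. Vgf followed the same libraries, highest in the third Wiz+/+ and the second WizMommeD30/+ cerebellum and lowest in the first of each. The mean log2 CPM over the 9 genes was 3.17, 3.45 and 3.89 in Wiz+/+ and 2.99, 3.67 and 3.26 in WizMommeD30/+, so the genotypes overlapped by this measure. Egr3, at 0 to 7 reads, weighs in this mean as much as any other gene. Its SD within genotypes, 0.789 on the log2 scale, was the largest of the 9, so counting noise adds to the mean. Summed over the 9 genes, 186, 249 and 303 CPM were found in Wiz+/+ against 155, 251 and 170 CPM in WizMommeD30/+. The sum was within the Wiz+/+ range in 1 of the 3 WizMommeD30/+ cerebellums and below it in the others.

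**Figure D2:**
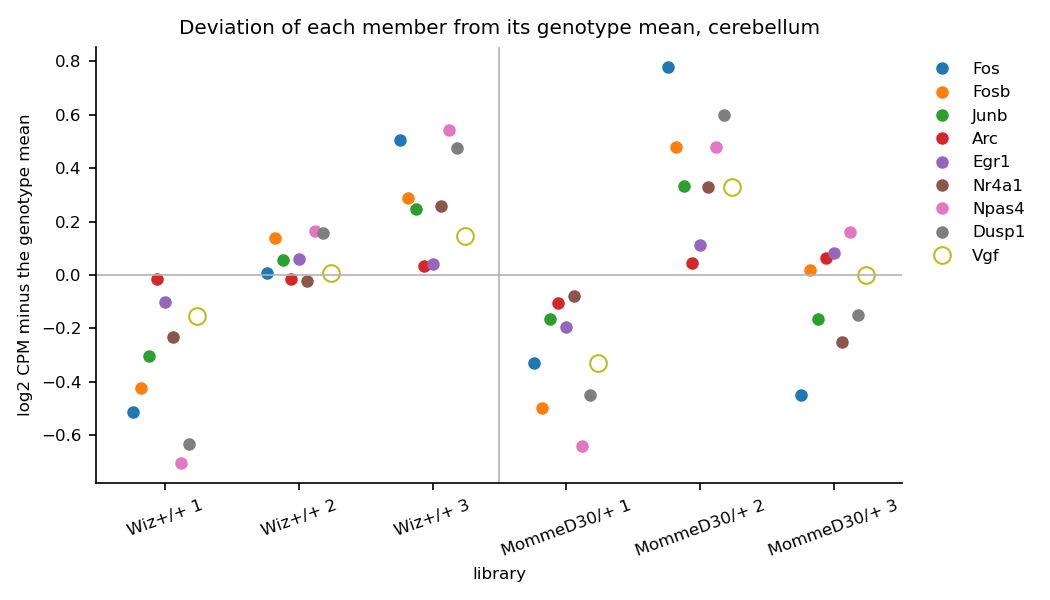
Log2 CPM of each gene minus its mean over the 3 libraries of the same genotype (vertical axis), by cerebellum library (horizontal axis), 1 point per gene, with Vgf as the open circle and Egr3 left out for its low counts. The points of the first library of each genotype lie below 0, and those of the third Wiz+/+ and second WizMommeD30/+ library lie above it.

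The spread between replicates was put on a common scale as the biological coefficient of variation, the relative spread beyond counting noise, estimated by edgeR within genotypes and set beside the trend of all genes at the same abundance. It was 41.2% for Fos (trend 3.13%), 39.8% for Npas4 (4.69%) and 37.4% for Dusp1 (3.04%) in cerebellum. Lower values of 27.5% for Fosb, 19.2% for Junb, 18.9% for Nr4a1, 17% for Vgf and 8.75% for Egr1 were likewise above their trends. Arc stood apart at 1.36%, under its trend of 3.57%. Thus 8 of 9 genes were above the trend, as were 33.4% of all genes, and the same 8 were among the 10% of genes with the highest ratio to it. The median ratio to the trend was 4.51 for the 9 genes and 0.62 over all genes. With the Wiz+/+ cerebellums alone it was 4.68, and 8 of 9 genes were again above the trend.

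**Figure D3:**
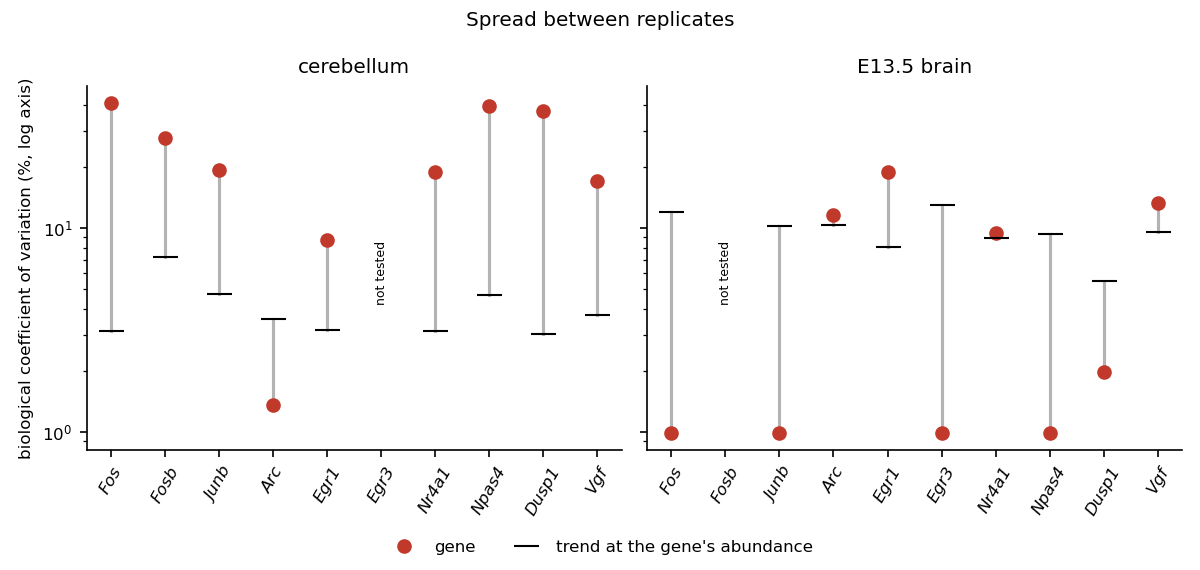
Biological coefficient of variation in percent (vertical log axis) of each gene (red points) and of the trend over all genes at the same abundance (black bars), in the 6 cerebellums and the 10 E13.5 brains. In cerebellum all genes except Arc lie above their bar, by up to 13.2-fold for Fos, whereas in E13.5 brain 4 of 9 do.

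Other gene groups in the same cerebellums were described with lists that were likewise chosen with earlier results known. Among 38 other immediate-early genes, 37 were tested and 0 were past the threshold by edgeR's quasi-likelihood test. Without the limit on fold change, 3 of the 37 had an adjusted p of at most 0.05 against 5.25% of all genes, and 10 had an unadjusted p under 0.05 against 19.9% of all genes. The 3 with an adjusted p of at most 0.05 were Dusp4 (log2 fold change -0.45, adjusted p = 0.00966), Dusp5 (-0.26, adjusted p = 0.00729), both of which encode MAP kinase phosphatases like Dusp1, and the AP-1 subunit gene Jund (-0.24, adjusted p = 0.00233). Per1, a clock gene and the third of the list's most abundant genes beside Dusp5 and Jund, had a log2 fold change of 0.00. The list's median log2 fold change was 0.01, with 17 genes below 0 and 20 above. Its spread was also raised, with 32 of 37 above the trend and a median ratio of 1.79, against 33.4% and 0.62 for all genes. Other lists described below were raised too. Above the trend were 12 of 14 stress and handling genes (median ratio 1.86) and 12 of 18 later activity-regulated genes (1.5). Granins and prohormone processing had 6 of 13 above it (0.976), and upstream signalling and transcription factors 10 of 29 (0.85).

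Of 22 later activity-regulated genes 18 were tested and 0 were past the threshold by the same test. Of the 18, 10 had a log2 fold change below 0, against 51.3% of all genes, and 8 above, with a median of -0.05. At any fold 5 had an adjusted p of at most 0.05, against 5.25% of all genes, and 9 had an unadjusted p under 0.05, against 19.9%. The neuritin gene Nrn1 (log2 fold change -0.27, adjusted p = 0.000982), the neurotrophin gene Bdnf (-0.28, adjusted p = 0.0374), the neuropeptide Y gene Npy (-0.43, adjusted p = 0.0397) and the secretogranin gene Scg2 (-0.17, adjusted p = 0.0365) were lower, and the synaptotagmin gene Syt4 (0.13, adjusted p = 0.0315) was higher. Nptx1, a pentraxin gene among the 3 most abundant of the list, had a log2 fold change of 0.10 and an adjusted p of 0.0534.

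Vgf protein is stored in secretory granules, and 13 genes of granins and prohormone processing were read beside it. Among them, Scg2 and Pcsk1 are also on the list of later activity-regulated genes. None of the 13 was past the threshold by edgeR's quasi-likelihood test, while 6 had an adjusted p of at most 0.05 at any fold, against 5.25% of all genes. An unadjusted p under 0.05 was found for 9, against 19.9% of all genes, and a log2 fold change below 0 for 11, against 51.3%. The median was -0.11, and 8 of the 13 were lower in WizMommeD30/+ without overlap, against 12.4% of all genes. Pcsk1n, which encodes an inhibitor of the prohormone convertase PC1/3, was at 207, 185 and 202 CPM in Wiz+/+ and at 152, 158 and 167 CPM in WizMommeD30/+. This was a log2 fold change of -0.32 (adjusted p = 0.000219) with the genotypes apart. Pcsk2, the gene of prohormone convertase 2, and Chgb, that of a granin, were lower by less, with log2 fold changes of -0.17 (adjusted p = 0.00485) and -0.13 (adjusted p = 0.0224). Cpe, the gene of carboxypeptidase E, and Scg3, that of another granin, had -0.08 (adjusted p = 0.168) and 0.04 (adjusted p = 0.5). Vgf, at -0.58, was below the whole range of the list, which ran from -0.32 to 0.10. Vgf was chosen with this contrast known, so nothing is read from its place beside the list.

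Of 29 genes of upstream signalling and transcription factors, 0 were past the threshold by edgeR's quasi-likelihood test, 8 had an unadjusted p under 0.05, against 19.9% of all genes, and the median log2 fold change was 0.02. At any fold 3 had an adjusted p of at most 0.05, against 5.25% of all genes, and all 3 were higher in WizMommeD30/+. They were Rps6ka5, which encodes a kinase that phosphorylates CREB (log2 fold change 0.21, adjusted p = 0.0085), the L-type calcium channel gene Cacna1c (0.21, adjusted p = 0.005) and Atf1, the gene of a relative of CREB (0.21, adjusted p = 0.0389). The 3 most abundant, Camk4, Camk2b and Ntrk2, had log2 fold changes of 0.04, 0.02 and -0.02. In a list of 14 stress and handling genes, 1 (Sgk1) was past the threshold, against 0.832% of all genes. At any fold 3 (Sgk1, Hsph1 and Bag3) had an adjusted p of at most 0.05 by the same test, against 5.25% of all genes. An unadjusted p under 0.05 was found for 6, against 19.9%. Of the 14, 8 had a log2 fold change below 0, against 51.3% of all genes, and 6 above, with a median of -0.03. Bag3 had a log2 fold change of -0.26. Sgk1, a kinase gene induced by glucocorticoids, was at 94.3, 72.0 and 66.4 CPM in Wiz+/+ and at 121, 103 and 108 CPM in WizMommeD30/+, a log2 fold change of 0.51 (adjusted p = 0.00318 by edgeR and 0.0544 by DESeq2's Wald test). The abundant chaperone genes Hspa8, Hsp90aa1 and Hsph1 had log2 fold changes of -0.10, -0.07 and -0.16, of which Hsph1 had an adjusted p of 0.0313 and the others 0.0964 and 0.225.

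Some markers of other cells differed between genotypes or libraries. None tested was past the threshold for Purkinje cells (5), granule cells (5), Bergmann glia and astrocytes (4), oligodendrocytes (4) or microglia (4). The same held for endothelium (3), choroid plexus (3), embryonic neurons (3) and neural progenitors (4), against 0.832% of all genes. In that order 0, 2, 2, 2, 0, 1, 0, 1 and 2 had an adjusted p of at most 0.05 at any fold by edgeR, against 5.25% of all genes. Of 7 blood genes, the embryonic globin genes Hbb-y and Hba-x had no read, and 5 were tested. All 5 were higher in every WizMommeD30/+ cerebellum. Of them, 4 (Alas2, Hba-a1, Hba-a2 and Hbb-bs, at log2 fold changes of 1.08, 0.78, 0.87 and 0.86) were past the threshold, against 0.832% of all genes. Only Alas2 of these 4 stayed past it under every alternative run. Hba-a1 and Hbb-bs had adjusted p of 0.206 and 0.141 with DESeq2's Wald test, Hba-a1 had 0.0651 without the first Wiz+/+ cerebellum, and Hba-a2 had 0.0546 to 0.153 without any 1 of the 6 libraries by edgeR. The blood genes' summed level was 145, 206 and 227 CPM in Wiz+/+ and 266, 480 and 281 CPM in WizMommeD30/+. Within each genotype the libraries thus had the same order in blood genes as in the mean of the 9 immediate-early genes, and between genotypes the direction was opposite. Choroid plexus markers summed to 1690 to 1920 CPM in Wiz+/+ and to 1990, 917 and 1920 CPM in WizMommeD30/+, the low value being in the second library, where 7 of the 9 immediate-early genes were highest. Brainstem markers summed to 5.69 to 7.39 CPM in Wiz+/+ and to 4.62 to 6.78 CPM in WizMommeD30/+. Of these 10 genes 4 were tested, 2 with a log2 fold change below 0 and 2 above. Only the noradrenaline transporter gene Slc6a2 was past the threshold (log2 fold change -2.10, adjusted p = 0.00554 by edgeR), against 0.832% of all genes. Slc6a2 had 27, 18 and 22 reads in Wiz+/+ and 4, 2 and 9 in WizMommeD30/+, and no adjusted p from DESeq2's Wald test. The part of any of these differences in the levels of the immediate-early genes or Vgf was not tested.

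In E13.5 brain the 10 genes were expressed at lower levels except Egr3, and 0 of the 9 tested were past the threshold in males, in females or over both sexes with sex as a covariate. Of all genes, 0.184%, 0.111% and 0.346% were past it in these comparisons. At an unadjusted p under 0.05 the counts were 0 in males, 0 in females and 1 (Arc) over both sexes, against 8.45%, 6.4% and 11.8% of all genes, and DESeq2's Wald test also called 0. Fosb, at 0.0796 to 0.233 CPM, was too low to be tested.

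Fos was at 1.25, 1.23 and 1.49 CPM in male Wiz+/+ brains and at 1.04, 1.17 and 1.11 CPM in male WizMommeD30/+ brains. In females it was at 1.03 and 0.793 CPM in Wiz+/+ and at 1.13 and 1.06 CPM in WizMommeD30/+. The genotypes were therefore apart in both sexes and in opposite directions, with lower WizMommeD30/+ values in males (log2 fold change -0.26, 95% interval -0.63 to 0.11) and higher ones in females (0.26, -0.30 to 0.81). The difference between the sexes was 0.52 (-0.05 to 1.08) with an unadjusted p of 0.0701 and an adjusted p of 0.985 by edgeR's quasi-likelihood test for the genotype by sex term, so it did not pass. None of the 9 genes passed that test, nor did any of the 17620 genes tested (0%). Genotypes that did not overlap were common in so few animals, at 12.3% of all genes in males and 36.2% in females. Markers of other cells and regions also differed in direction between the sexes. All 7 blood genes had a genotype by sex term below 0 (median -0.36 on the log2 scale), and their sum was 721 to 1020 CPM in male Wiz+/+, 873 to 1150 in male WizMommeD30/+, 1350 to 1390 in female Wiz+/+ and 1250 to 1270 in female WizMommeD30/+ brains. Of the 10 brainstem markers 9 had that term below 0 (median -0.34), with sums of 44.2 to 50 and 49.6 to 55.1 CPM in Wiz+/+ and WizMommeD30/+ males and of 66.9 to 68.9 and 55.8 to 59.3 CPM in females. The forebrain gene Emx1 went the way of Fos, with log2 fold changes of -0.29 in males and 0.62 in females, and Dlx2 had 0.13 and 0.30. The part of these markers in the values of Fos was not tested.

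Arc was at 2.79, 2.45 and 2.07 CPM in male Wiz+/+ and at 2.75, 2.81 and 3.01 CPM in male WizMommeD30/+ brains. The female values were 2.91 and 2.04 CPM in Wiz+/+ and 3.48 and 2.87 CPM in WizMommeD30/+. Both sexes overlapped, and the log2 fold change over both was 0.28 (0.02 to 0.53), with an unadjusted p of 0.0371 and an adjusted p of 0.383 by edgeR. Its sign was opposite to that in cerebellum, but that difference was not tested.

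Egr1 was at 9.10, 9.19 and 12.7 CPM in male Wiz+/+ and at 8.14, 10.1 and 9.01 CPM in male WizMommeD30/+ brains, and at 7.97 and 7.69 CPM in female Wiz+/+ and at 7.31 and 12.2 CPM in female WizMommeD30/+ brains. Of the 9 genes tested, it had the widest range among the female WizMommeD30/+ brains. Egr3 was at 0.717, 1.1 and 0.875 CPM in male Wiz+/+ and 0.643, 0.660 and 0.644 CPM in male WizMommeD30/+ brains, which is without overlap but at 18 to 36 reads per library. The log2 fold change of Egr3 in males was -0.38 (-0.86 to 0.11), with an adjusted p of 0.687 by edgeR, and its female values overlapped.

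Vgf was at 5.14, 3.92 and 4.17 CPM in male Wiz+/+ and at 4.11, 3.62 and 5.15 CPM in male WizMommeD30/+ brains. In females it was at 4.87 and 4.99 CPM in Wiz+/+ and at 5.11 and 3.92 CPM in WizMommeD30/+. The genotypes overlapped in both sexes, and the log2 fold change over both was -0.10 with a 95% interval of -0.34 to 0.14 and an adjusted p of 0.777 by edgeR. The -0.58 of cerebellum was known when Vgf was chosen, so nothing is read from setting it beside this interval. The difference between the tissues was not tested.

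Of the remaining genes, Dusp1 and Npas4 kept to narrower ranges relative to their levels over all 10 E13.5 brains than Nr4a1 and Junb did. Dusp1 ranged from 30.3 to 35.6 CPM, Npas4 from 4.71 to 5.88 CPM, Nr4a1 from 5.21 to 7.73 CPM and Junb from 2.69 to 3.92 CPM. For Dusp1 the log2 fold change over both sexes was 0.01 with a 95% interval of -0.07 to 0.09, the narrowest of the 9. Over both sexes 5 of the 9 genes were below 0 and 4 above, against 50.3% of all genes below 0, with a median of -0.05 against 0.00 for all genes. The lists of other immediate-early genes, later activity-regulated genes, granins, upstream factors and stress genes each had 0 genes past the threshold in males, in females and over both sexes by the same test. Over both sexes 1 of 37, 6 of 22, 1 of 13, 5 of 29 and 0 of 14 of their tested genes had an unadjusted p under 0.05, against 11.8% of all genes.

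**Figure D4:**
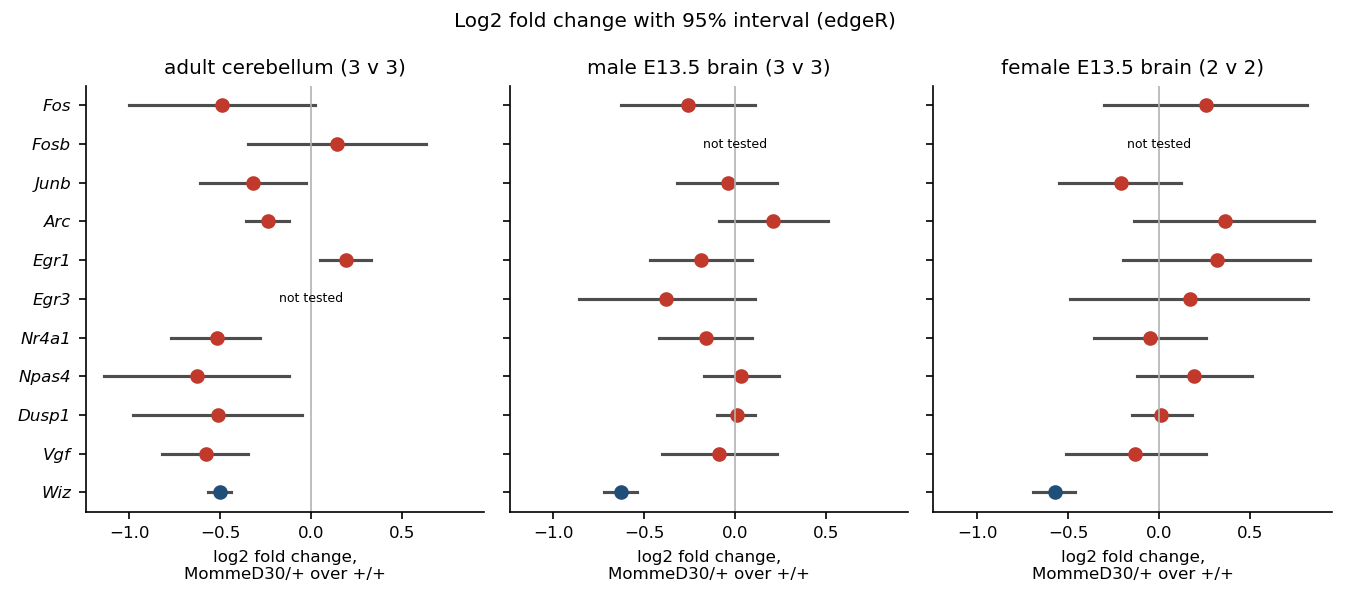
Log2 fold change of WizMommeD30/+ over Wiz+/+ (horizontal axes) with its 95% interval (lines), for the 9 genes tested in each comparison in red and Wiz in blue, in adult cerebellum (without Egr3) and male and female E13.5 brain (without Fosb). Wiz is below 0 in each, 7 of the 9 genes lie below 0 in cerebellum, and in E13.5 brain the intervals of all 9 genes tested include 0.

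The spread between replicates was smaller in E13.5 brain than in cerebellum for 6 of the 8 genes estimated in both. Fos, Junb, Egr3 and Npas4 had a biological coefficient of variation of 0.988%, the lowest value the estimate takes, and so varied no more than counting noise gives, while Dusp1 was at 1.98%. Arc at 11.6%, Egr1 at 18.8%, Nr4a1 at 9.46% and Vgf at 13.2% were above their trends. In all, 4 of 9 were above the trend against 27.5% of all genes, and the median ratio was 0.36 against 0.655 over all genes. The count was 2 without the third male Wiz+/+ brain, in which Egr1 was highest, and 2 with the Wiz+/+ brains alone. Counting noise is larger for these low levels, so a spread of a given relative size was less detectable than in cerebellum. The highest library of a group held 5, 5, 7 and 5 of the 9 immediate-early genes in male Wiz+/+, male WizMommeD30/+, female Wiz+/+ and female WizMommeD30/+ brains. With 2 libraries in a female group, 1 of them holds at least 5 of the 9 in any case. These counts include Fosb at 2 to 8 reads. The mean log2 CPM over the 9 genes ranged from 1.41 to 1.72.

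**Figure D5:**
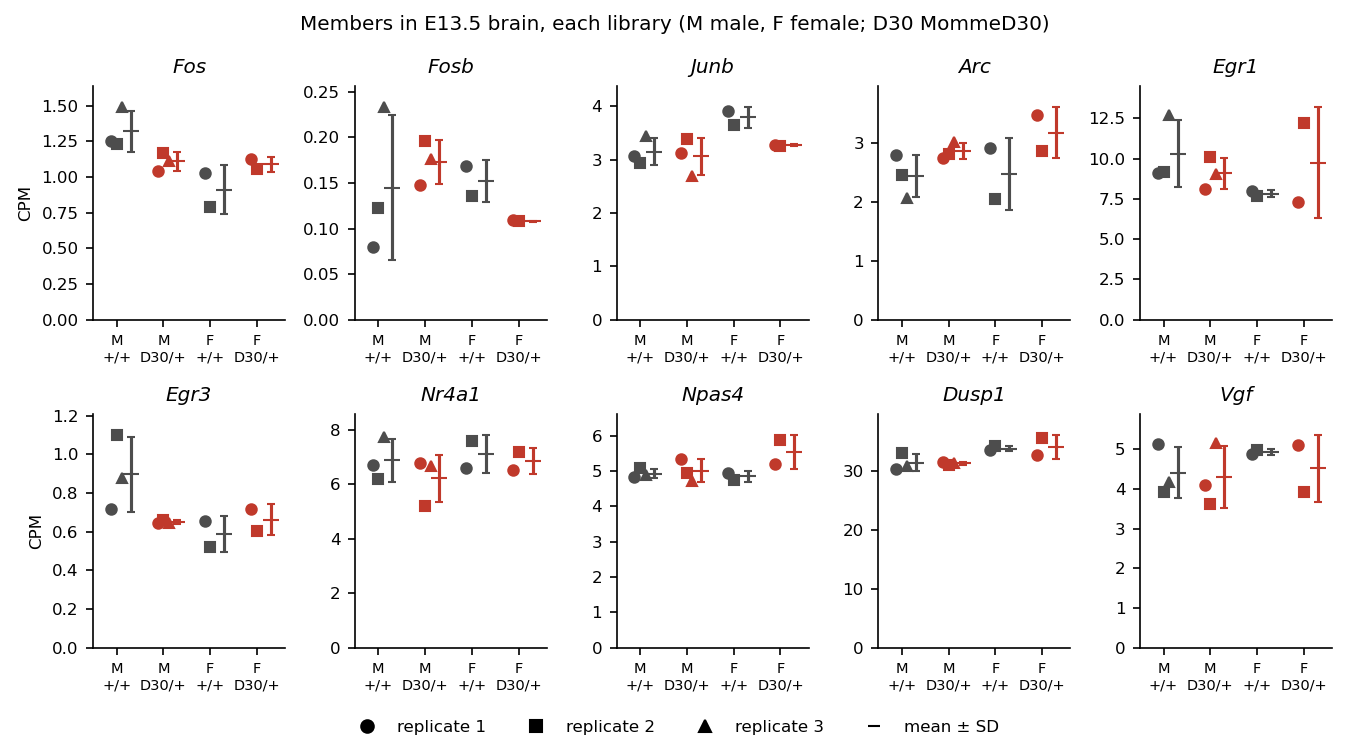
CPM of each of the 10 genes (vertical axes, each from 0) in the 10 E13.5 brains, grey for Wiz+/+ and red for WizMommeD30/+, males and females apart, with a marker shape per replicate number and the mean and SD beside them. Dusp1 stays between 30.3 and 35.6 CPM in all brains, and the genotypes of Vgf overlap in both sexes.

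Compared between Wiz+/+ cerebellum and Wiz+/+ male E13.5 brain, the 8 genes abundant enough to be tested within each tissue were past the threshold and higher in cerebellum. Of the 16840 genes tested 69.3% were past it, 36.4% as higher and 32.9% as lower in cerebellum. Tissue, age and preparation cannot be told apart in this comparison. Fos had the largest log2 difference, 5.46 (SE 0.272) higher in cerebellum, followed by Arc (3.35), Nr4a1 (3.08) and Vgf (2.43). Egr1 (1.93), Junb (1.92), Npas4 (1.47) and Dusp1 (1.29) were higher by less. The adjusted p of edgeR's quasi-likelihood test was at most 2.01e-05 for each of the 8. Fosb and Egr3 passed the filter on low counts only through the tissue in which they are high, so no test is given for them. Fosb had 1.24, 1.86 and 2.08 CPM in Wiz+/+ cerebellum against 4, 2 and 8 reads in male Wiz+/+ brain, and Egr3 had 2, 0 and 7 reads against 0.717, 1.1 and 0.875 CPM. With scaling by total counts alone the median of all genes moved by -0.21 on the log2 scale, and the 8 genes remained past the threshold in the same direction.

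The order of the genes by level per kilobase of exon also differed between the tissues. In Wiz+/+ cerebellum Fos (14.4 to 29.3 CPM per kb), Dusp1 (12.1 to 26.2) and Nr4a1 (12.2 to 17.1) were highest with overlapping ranges, and Egr1 (7.08 to 7.91), Arc (7.02 to 7.29) and Vgf (6.36 to 7.84) came next, also overlapping. Junb (3.59 to 5.29 CPM per kb) and Npas4 (1.63 to 3.87) overlapped below them, and Fosb (0.199 to 0.334) and Egr3 (0 to 0.0517) were lowest and apart from each other. In male Wiz+/+ E13.5 brain Dusp1 was far above the rest at 9.14 to 9.98 CPM per kb. Egr1 (2.03 to 2.83) and Nr4a1 (1.76 to 2.2) overlapped, as did Vgf (1.32 to 1.73) and Junb (1.28 to 1.5), and Fos was only eighth of the 10 at 0.521 to 0.632 CPM per kb.

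Genes with the most similar pattern across libraries were sought by Pearson's r of log2 CPM after the group means were subtracted, as a description over few libraries. Over the 6 cerebellums, Wtap (0.998), Fastkd1, Atp6v1a, Tceal9 and Slc38a6 (0.993) were nearest to the mean of the 9 immediate-early genes among 11478 genes, and Mllt11 (0.998), Arhgef15, Pknox1, Hadhb and Dgke (0.992) were nearest to Vgf. The standard deviations of these 10 genes within genotypes were small, from 0.01 to 0.099 on the log2 scale, against 0.598 for Fos and 0.257 for Vgf. Over the 10 E13.5 brains, Glb1l (0.973), Cep78, Galnt18, Xrcc5 and Ldlrad3 (0.957) were nearest to the immediate-early mean and Hagh (0.984), Stim1, Gaa, Vwa8 and Ubfd1 (0.937) to Vgf. The 4 lists had no gene in common. The mean over the E13.5 brains includes Fosb at 2 to 8 reads. Fosb had the largest SD within groups of the 9 genes, 0.348, and the highest r with their mean, 0.907, while Arc had the lowest, -0.186. The likeness is thus in part to a gene too low to be tested, and the cerebellar mean likewise includes Egr3. The libraries of a tissue share their preparation, and with so few of them some of the many genes ranked reach a high r.

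Junb and Dusp1 overlap genes on the opposite strand. Of the 2301 exonic bases of Junb, 173 are shared with Prdx2, which had 247012 reads over all libraries against 3002 for Junb, and of the 3311 exonic bases of Dusp1, 11 are shared with Ergic1. Whether reads were counted by strand is not stated, so reads in the shared bases cannot be assigned to either gene.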

How the data were processed

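RNA-seq counts of 16 samples were used, and the 3 ChIP-seq samples of the series were not analysed here. Per the methods and the submitters' processing notes, the authors mapped single-end reads of polyA RNA with TopHat2 2.0.11 to the mm10 genome, and htseq-count of HTSeq 0.6.1 counted those falling on genes. The deposited values are raw counts per Ensembl gene, without normalization, and the counting mode and strand setting are not given in the sources used here. Of 41388 identifiers 40340 were found in GENCODE M21, which gave symbols, positions and exon lengths.

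In R 4.3.3, edgeR 4.0.16 was run on the samples of each comparison separately (TMM scaling, filterByExpr with a minimum count of 10, quasi-likelihood test, Benjamini-Hochberg adjustment over all tested genes). The threshold was an adjusted p not above 0.05 with a fold below 0.7 or above 1.3, limits taken from the study's methods, or the adjusted p alone for the genotype by sex term. Intervals are 95% intervals. CPM values are TMM-scaled. Log2 CPM used a prior count of 2. The biological coefficient of variation was estimated per gene without shrinkage (4 residual degrees of freedom in cerebellum and 6 in E13.5 brain). Fits were tested on simulated counts. DESeq2 1.42.0 was run as an alternative. Figures were drawn with matplotlib 3.10.9.

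The genes, lists and tests were chosen with earlier results of these data known. Named in the text were the 10 genes and Wiz and, in cerebellum, from each list of activity-related or stress genes and each marker list, the genes past the threshold and, for the former, the 3 most abundant. Dusp4, Pcsk1n, Pcsk2, Nrn1, Bdnf, Npy, Rps6ka5, Cacna1c, Atf1 and Bag3 were named after their values were seen, as were the tissue markers given as examples and the 3 promoters printed. Genes of like pattern needed a mean CPM of at least 5. Replicate numbers did not pair samples: residuals of same-numbered samples correlated at -0.085 to -0.022 in cerebellum, -0.146 to -0.044 in male and -0.05 in female brain.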

Additional observations from a re-analysis of the deposited data

How the results depend on the processing

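Alternatives were DESeq2's size factors and Wald test, total counts alone, other count filters, the replicate number as a block and leaving out each library. The count of the 9 tested genes past the threshold in cerebellum, 2 in the report, was 0 with DESeq2's Wald test, 4 with no filter on low counts and 0 to 4 without 1 library. With the replicate block it was 4 (Dusp1, Npas4, Nr4a1 and Vgf), and the block changed no other count, while Wiz in females had an adjusted p of 0.056 with it. In E13.5 brain the count was 0 in each comparison and for genotype by sex under every alternative run, and between tissues the 8 genes tested within each tissue were past it under each. Genes above the trend of spread were 8 in cerebellum with any library left out and 2 to 4 in E13.5 brain, where the Wiz+/+ brains alone gave 2. Directions turned as follows. Per1 was at -0.000727 with no filter and at -0.0702 to 0.0551 without 1 library, and Fosb in cerebellum at -0.14 to 0.36. Leaving out 1 library gave, in males, Junb -0.12 to 0.0343, Npas4 -0.0166 to 0.0717, Dusp1 -0.0163 to 0.0393 and Vgf -0.23 to 0.0669. In females it gave Egr1 -0.0963 (without the second WizMommeD30/+ brain) to 0.64, against 0.32 with all, Nr4a1 -0.15 to 0.0571, Dusp1 -0.0476 to 0.0691 and Vgf -0.33 to 0.0554, with the lone sample of an arm assumed to vary like the others. Over both sexes it gave Fos -0.15 to 0.0376, Egr1 -0.16 to 0.15 and Dusp1 -0.0106 to 0.0283, and for genotype by sex Arc -0.0824 to 0.43, Nr4a1 -0.00533 to 0.22, Dusp1 -0.0494 to 0.0636 and Vgf -0.25 to 0.14. The cause was not tested. Depth limited Fosb and Egr3, at fewer than 10 reads in 10 and 6 of the 16 libraries, and 2 or 3 animals a group limit every estimate of spread.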
